A study of Mus musculus with 4 samples.

Results

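The expression of 54 interferon response and immunoproteasome genes was examined in the colon of mice, in surface and in crypt cells, after a diet with or without heme, the iron-bearing cofactor that gives red meat its colour. The genes were taken from a given list of symbols, which was chosen with earlier results of these data known. A gene counted as measured when at least 1 probe set of the array carried its symbol and no other. Of the 54 genes, 49 were measured, out of 19938 genes on the array. Probe sets for Oas1g, Isg15, Gbp2 and Igtp carried a further gene symbol, and Ifi44 had no probe set in the platform annotation, so none of these 5 is given a value.

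Male C57BL/6 mice, 11 weeks old, received for 14 days a high fat, low calcium diet that supplied 40% of its energy as fat. The heme diet had 0.5 µmol/g heme added, and nothing else in the labels set the diets apart. Surface cells and crypt cells were taken from frozen Swiss rolls of colon with laser capture microdissection, a way to lift chosen cells out of a tissue section. RNA was pooled over 4 control mice and over 3 heme-fed mice before labelling, which gave 1 array each for control surface, heme surface, control crypt and heme crypt cells. Surface and crypt pools of 1 diet were drawn from the same animals. There is therefore no replicate and no test, and no difference below can be compared with the spread between mice.

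Interferons are secreted cytokines that bind receptors on neighbouring cells and act through JAK kinases and STAT transcription factors. Type I and type III interferons act through a complex with STAT2 and IRF9 that binds the interferon-stimulated response element (ISRE), and type II interferon acts through gamma-activated sites (GAS). The induced genes encode sensors of foreign RNA and DNA, enzymes that block viral replication, and the machinery that cuts proteins into peptides and loads them on MHC class I. In the immunoproteasome, PSMB8, PSMB9 and PSMB10 take the place of the constitutive catalytic subunits PSMB5, PSMB6 and PSMB7, and the TAP1 and TAP2 transporter carries the peptides into the endoplasmic reticulum.

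All values are log2 expression values of single arrays. The words higher and lower below stand for a difference of 2-fold or more in which 1 or more of the compared arrays had a value of at least 5.75. That floor was the median over all genes and arrays. The rule concerns size only and involves no test. Where a value lies below the floor, the size of the difference or fold is uncertain. Levels are compared within a gene and not between genes, because each probe set has its own response. In pooled RNA, fewer cells of a type and less RNA per cell cannot be told apart.

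The labelled compartments carried their markers. On the control diet, surface minus crypt differences ran from 2.02 to 5.78 for 10 markers of surface colonocytes and from -3.18 to -2.20 for 8 markers of the crypt base and its progenitors. Pearson's r over 35556 probe sets was 0.979 between the surface arrays and 0.986 between the crypt arrays. The summed level of pan-epithelial genes, as the log2 of the sum of their linear values, was 15.0 and 15.1 in control and heme surface cells, and 14.1 and 14.0 in control and heme crypt cells.

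In heme-fed mice, surface cells had lower RNA levels of a large share of the interferon response and immunoproteasome genes, and none of those genes was higher by the size rule. Of 47 genes above the floor in surface cells, 24 were at least 2-fold lower on heme, where 2.01% of 10282 genes were lower in the same comparison and 3.62% were higher. Because the list was chosen with earlier results of these data known, its contrast with all genes is not independent of that choice. The median difference of the 47 genes was -1.03, against -0.02 for all genes above the floor. Without the floor it was -0.90 over the 49 measured genes, against -0.04 over all 19938. The lowest values belonged to the IFIT family gene Ifit1bl2 (-3.28) and the ubiquitin ligase gene Trim30d (-3.20), which were numbers 4 and 5 among the 10282 genes ranked from the lowest difference. Oasl2, Irf7 and Oas2 followed at ranks 20, 21 and 22. Of the 24 lower genes, 9 reached the floor on the control surface array but not on the heme surface array. Ifit1bl2, Trim30d and Oas2 were among these 9, so the size of their differences and their ranks are uncertain. At the other end, 7 of the 47 genes differed by more than 0, up to 0.31 for Ifitm1, where 4989 of 10282 genes did. At 1.5-fold, 31 genes of the list were lower and none was higher, where 7.92% and 10.5% of all genes were.

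**Figure D1:**
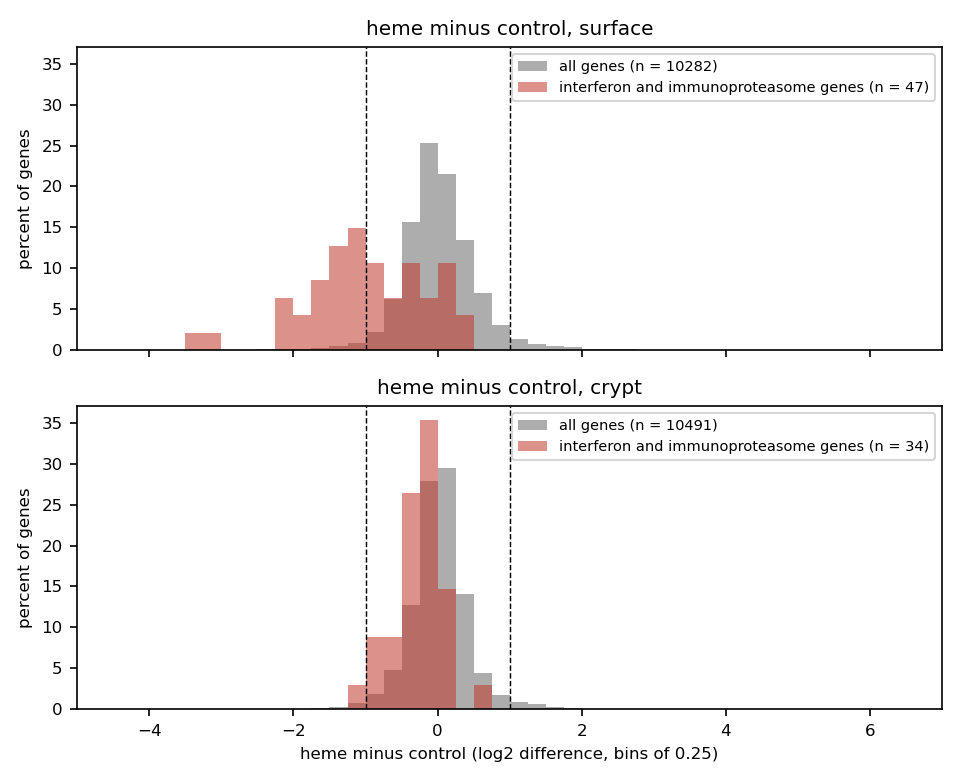
Histograms of the difference between diets (heme minus control, log2, bins of 0.25) in surface cells (top) and crypt cells (bottom), as the percent of genes above the floor, for all genes (grey) and for the interferon and immunoproteasome genes (red). Dashed lines mark 2-fold, and 24 of 47 genes lie below the lower line in surface cells against 1 of 34 in crypt cells.

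The control surface array held the highest of the 4 values for 42 of the 49 genes, whereas it did so for 30.3% of all genes. The heme crypt array held the lowest value for 34 of the 49, against 26.1% of all genes. Values at or above the floor were found for 47 genes in control surface cells, for 34 in heme surface cells, for 34 in control crypt cells and for 28 in heme crypt cells. Those were 95.9%, 69.4%, 69.4% and 57.1% of the 49, against 49.9%, 48.4%, 51.3% and 50.5% of all genes. The median level of the 49 genes was 7.47 in control surface, 6.59 in heme surface, 6.29 in control crypt and 6.17 in heme crypt cells. On the other 3 arrays the medians thus lay close together, below the control surface array.

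**Figure D2:**
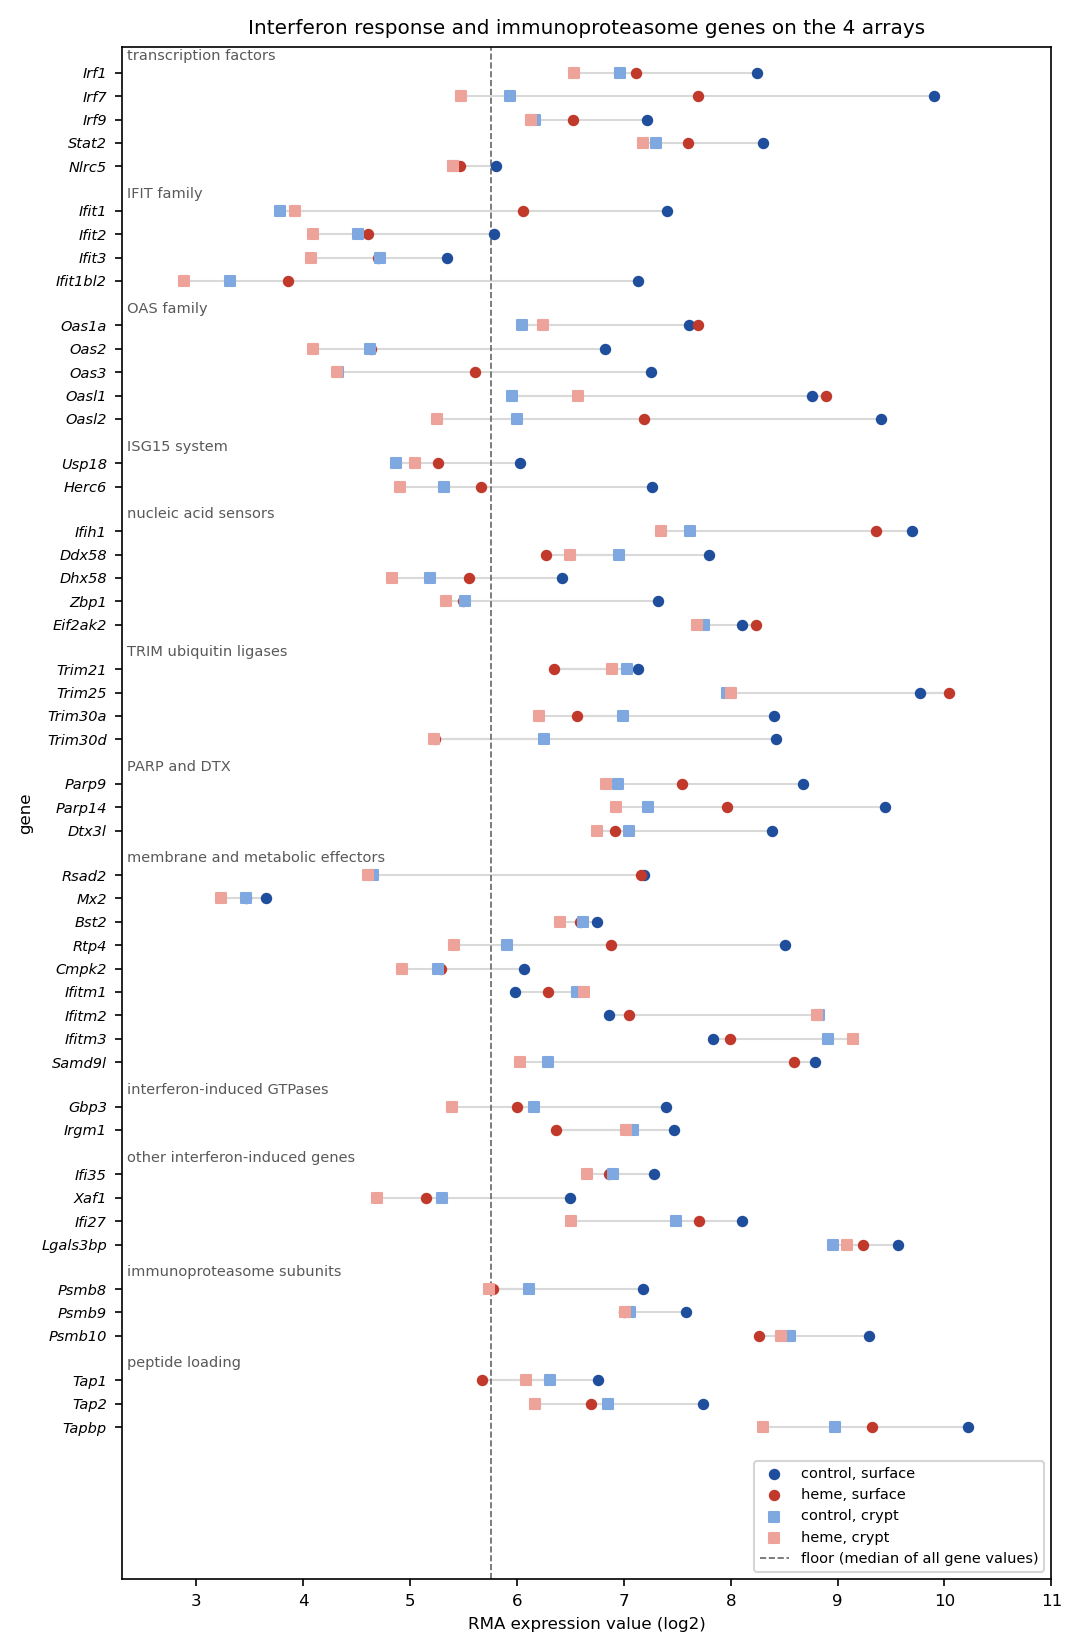
RMA expression values (log2) of the 49 measured genes, grouped by role, on the 4 arrays (circles surface, squares crypt, blue control, red heme). The dashed line is the floor, and the dark blue circle of control surface cells is the rightmost point in 42 of the 49 genes.

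Markers of other cell types were measured on the same arrays. In surface cells, the summed level of 10 T cell and intraepithelial lymphocyte markers was 8.41 on control and 7.95 on heme, and in crypt cells it was 7.81 and 7.90. Differences between diets were below 0 for 8 of the 10 in surface cells and ran from -1.15 to 0.17. Of these markers 9 lay below the floor on every array, among them Cd3d, Cd3g, Cd8a and Gzmb. The summed tuft cell markers went from 9.21 to 8.46 in surface cells, with 3 of 4 genes above the floor lower (75.0%, against 2.01% of all genes). In crypt cells they went from 8.87 to 8.26, and 6 of 6 measured markers differed by less than 0. The summed leukocyte markers were 9.62 and 9.64 in control and heme surface cells, and macrophage and dendritic cell markers had a median difference of 0.23 there. Of 5 B and plasma cell markers and of 5 neutrophil markers, 4 each lay below the floor on every array. The others were Jchain (0.13 in surface cells) and Ly6g (0.81 in surface and 2.39 in crypt cells). Surface minus crypt differences of Ly6g were 6.69 on control and 5.11 on heme, and whether it marked neutrophils here was not tested. Plasmacytoid dendritic cell markers went from 9.34 to 8.97, and Siglech lay below the floor on every array. Of 12 markers of smooth muscle and fibroblasts, 10 were below 0 in surface cells, and the median of those above the floor was -0.44. In crypt cells the median difference between diets was -0.72 for smooth muscle and fibroblast markers, -0.65 for endothelial markers and -0.65 for macrophage and dendritic cell markers. Their part in the differences of the interferon genes was not tested. The diet cannot be told apart from the pool of mice, since each diet is represented by 1 set of animals.

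Promoter sequences were compared because many of these genes were lower together. RefSeq promoter windows (GRCm38.p6, from 250 bases before to 50 bases after a start site) were matched by symbol for 43 of the 54 genes. The ISRE core, GAAA followed by any 2 bases and GAAA again, was searched on both strands. It was found in 22 of the 43 genes (51.2%) and in 3.99% of the 27025 genes with a window. The longer form, the same letters followed by CT, always contains the core, and it was found in 13 of the 43 (30.2%) and in 0.303% of all genes. The GAS form, TTC and GAA with any 3 bases between them, was found in 9 of the 43 (20.9%) and in 9.55% of all genes. Among genes that were lower in heme surface cells and had a window, 7 of 18 held the longer ISRE, 8 of 18 the core and 3 of 18 the GAS form. Among measured genes that were not lower, 4 of 20 held the longer ISRE, 10 of 20 the core and 5 of 20 the GAS form. The 4 include Ifit3, which lay below the floor on all 4 arrays and so could not be counted as lower. The 7 include both Ifit1 and Ifit1bl2, whose windows overlap and hold the same pair of matches. No difference between the groups is read from these counts.

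The windows below show the longer ISRE, or overlapping copies of it and the core, in capitals, 5′ to 3′ on the strand of the gene. Ifit1, Trim30d, Trim30a and Gbp3 were lower in heme surface cells, and Oas1a, which holds the same motif, was not.
Ifit1, chr19:34640639-34640938, plus strand: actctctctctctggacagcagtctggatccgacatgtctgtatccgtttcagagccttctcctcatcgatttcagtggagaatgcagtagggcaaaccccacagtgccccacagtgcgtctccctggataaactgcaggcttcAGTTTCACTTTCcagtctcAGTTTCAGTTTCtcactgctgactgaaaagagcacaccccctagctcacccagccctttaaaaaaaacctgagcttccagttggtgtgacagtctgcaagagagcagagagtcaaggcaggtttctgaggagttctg
Trim30d, chr7:104507800-104508099, minus strand: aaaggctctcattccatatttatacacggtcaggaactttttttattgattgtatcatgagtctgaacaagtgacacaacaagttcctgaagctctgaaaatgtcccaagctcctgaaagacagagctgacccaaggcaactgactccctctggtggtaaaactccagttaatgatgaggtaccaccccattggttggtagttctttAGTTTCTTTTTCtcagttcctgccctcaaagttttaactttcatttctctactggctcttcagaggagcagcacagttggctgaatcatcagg
Trim30a, chr7:104465144-104465443, minus strand: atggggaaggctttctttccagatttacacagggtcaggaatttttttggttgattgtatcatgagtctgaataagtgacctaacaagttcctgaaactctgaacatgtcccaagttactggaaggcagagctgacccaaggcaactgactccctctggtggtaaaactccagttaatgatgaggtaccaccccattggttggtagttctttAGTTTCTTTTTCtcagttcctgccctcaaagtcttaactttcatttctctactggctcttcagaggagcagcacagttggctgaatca
Gbp3, chr3:142559794-142560093, plus strand: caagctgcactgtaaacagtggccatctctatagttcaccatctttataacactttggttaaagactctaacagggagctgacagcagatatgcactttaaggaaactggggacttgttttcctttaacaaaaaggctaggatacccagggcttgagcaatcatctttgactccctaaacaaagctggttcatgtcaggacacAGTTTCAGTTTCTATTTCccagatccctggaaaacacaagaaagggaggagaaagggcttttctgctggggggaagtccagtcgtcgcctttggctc
Oas1a, chr5:120907476-120907775, minus strand: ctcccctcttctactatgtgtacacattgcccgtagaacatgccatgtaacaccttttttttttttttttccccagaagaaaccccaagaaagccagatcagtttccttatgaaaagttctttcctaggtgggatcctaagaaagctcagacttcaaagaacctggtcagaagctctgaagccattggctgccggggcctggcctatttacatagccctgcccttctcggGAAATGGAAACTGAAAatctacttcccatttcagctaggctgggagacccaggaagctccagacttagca

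The Ifit1 window holds the longer ISRE at -106 to -95 and at -87 to -76 from the start site, both on the strand opposite to the gene. Ifit1bl2 starts 146 bases away and reads in the other direction, and its window shares 245 bases with that of Ifit1. The same pair of matches lies at -51 to -40 and at -70 to -59 from the start of Ifit1bl2. Trim30d and Trim30a, which are neighbouring genes, hold the same 12 letters, GAAAAAGAAACT on the strand opposite to the gene, at -43 to -32 and at -38 to -27. In Gbp3 the longer form lies at -47 to -36 and, overlapping it, at -41 to -30, and in Oas1a it lies at -20 to -9. Gbp3 and Trim30a each have another start site, whose window is not printed. The other Gbp3 window (chr3:142560106-142560405) held no ISRE core or longer form, and the other Trim30a window held the longer form at 1 to 12. A match is a description of letters, and no binding was measured.

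Among the transcription factors, Irf7 and Irf1 were lower in heme surface cells. Irf7, which encodes the factor that amplifies the interferon response, had levels of 9.90 in control surface, 7.70 in heme surface, 5.93 in control crypt and 5.48 in heme crypt cells. It was 4.61-fold lower on heme in surface cells (-2.20) and differed by -0.45 in crypt cells. Both surface values lay above both crypt values. Irf1, an interferon-induced activator of antigen presentation genes, had levels of 8.25, 7.11, 6.97 and 6.54 in the same order and differed by -1.13 in surface cells. Its 2 probe sets differed by -1.41 and -0.86, and with log2(2^value + 32), which gives low values less weight, Irf1 did not pass the size rule.

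The components of the ISRE-binding complex differed less between diets. Irf9 had levels of 7.22 in control surface, 6.52 in heme surface, 6.17 in control crypt and 6.13 in heme crypt cells, so that the diets differed by -0.70 at the surface and -0.04 in crypts. Stat2 went from 8.30 to 7.60 in surface cells (-0.70) and from 7.30 to 7.18 in crypt cells (-0.12). Both were higher in control surface than in control crypt cells, by 1.05 and 1.00. Nlrc5, the activator of MHC class I genes, rested on 19 probe sets with differences from -1.09 to 0.30 in surface cells, of which 17 were below 0. Its mean difference was -0.33, and it passed the size rule in no comparison.

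The IFIT family encodes proteins that bind viral RNA and block its translation. Ifit1bl2 had the most negative difference of all 49 genes, with levels of 7.13 in control surface, 3.85 in heme surface, 3.31 in control crypt and 2.89 in heme crypt cells. It was 9.70-fold lower on heme in surface cells, and the heme surface value, like both crypt values, lay below the floor. Ifit1, its neighbour with the shared promoter printed above, had levels of 7.40, 6.06, 3.79 and 3.92 in the same order and was 2.54-fold lower (-1.35). On heme, the surface value of Ifit1 was still above both crypt values, which lay below the floor. Ifit2 went from 5.78 to 4.61 in surface cells (-1.17) and lay at 4.52 and 4.09 in control and heme crypt cells. It reached the floor on the control surface array only, and it was not counted with log2(2^value + 32) or after cyclic loess scaling. Ifit2 has 1 probe set, so its values stayed the same with the highest probe set of each gene. It was not counted there because the floor was computed anew and lay above its values. Ifit3 lay below the floor on all 4 arrays. IFIT genes are close relatives, and how far their probes share signal was not tested.

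Oligoadenylate synthetases (OAS) make a small RNA-like messenger in response to double-stranded RNA that switches on RNase L, and 3 of the 5 genes measured were lower in heme surface cells. Oasl2 had levels of 9.41 in control surface, 7.19 in heme surface, 6.00 in control crypt and 5.26 in heme crypt cells and was 4.65-fold lower on heme in surface cells. Its chromosomal neighbour Oasl1, which restrains translation of Irf7, had levels of 8.76, 8.89, 5.95 and 6.57 in the same order and differed by 0.13. Surface values were above crypt values for both genes on both diets. Oas2 had levels of 6.82 in control surface, 4.63 in heme surface, 4.63 in control crypt and 4.09 in heme crypt cells, so that heme surface cells were 4.58-fold lower, with a value below the floor as in crypt cells. Oas3, next to Oas2 on the chromosome, went from 7.26 to 5.61 in surface cells (-1.65) and lay at 4.32 and 4.32 in crypt cells. Oas1a had levels of 7.61, 7.70, 6.05 and 6.24 and differed by 0.09 in surface and 0.19 in crypt cells. Oas1a has a close relative, Oas1g, and how far their probes share signal was not tested.

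ISG15 is a ubiquitin-like protein that is attached to other proteins after interferon, and its ligase and protease genes were measured. Herc6, the main mouse ISG15 ligase, had levels of 7.26 in control surface, 5.66 in heme surface, 5.32 in control crypt and 4.90 in heme crypt cells and was 3.02-fold lower on heme in surface cells. Usp18, which removes ISG15 and restrains the interferon receptor, had levels of 6.03, 5.26, 4.87 and 5.05 in the same order and differed by -0.76 in surface cells. Usp18 reached the floor in control surface cells only.

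The sensors of foreign nucleic acid also differed among themselves. Zbp1, a sensor of Z-form nucleic acid that can start necroptosis, had levels of 7.32 in control surface, 5.50 in heme surface, 5.52 in control crypt and 5.33 in heme crypt cells and was 3.53-fold lower on heme in surface cells. Ddx58, which encodes the RNA sensor RIG-I, went from 7.80 to 6.28 in surface cells (-1.52) and from 6.95 to 6.50 in crypt cells (-0.46). Its heme surface value was the lowest of the 4. Ifih1, which encodes the related sensor MDA5, had levels of 9.70, 9.36, 7.62 and 7.35 and differed by -0.34, although control surface cells had 4.22-fold more than control crypt cells. Dhx58, a regulator of both sensors, had levels of 6.43, 5.55, 5.19 and 4.83 and differed by -0.87 in surface cells. Eif2ak2, the kinase PKR that halts translation, differed by 0.14 in surface and -0.07 in crypt cells.

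Among the TRIM ubiquitin ligases, the neighbouring genes Trim30a and Trim30d were both lower in heme surface cells. Trim30d had levels of 8.43 in control surface, 5.23 in heme surface, 6.25 in control crypt and 5.22 in heme crypt cells. It was 9.19-fold lower on heme in surface cells and 2.04-fold lower in crypt cells, and it was the single gene of the list past the size rule in crypt cells. Trim30a, described as a restraint on inflammatory signalling, had levels of 8.40, 6.57, 6.99 and 6.20 in the same order and was 3.57-fold lower in surface cells. Trim25, the ligase that activates RIG-I, had levels of 9.77, 10.04, 7.96 and 8.00 and differed by 0.27, with both surface arrays above both crypt arrays. Trim21, an intracellular antibody receptor, differed by -0.78 in surface cells and -0.14 in crypt cells. Trim30a and Trim30d are close relatives, and their signals may not be fully separate.

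All 3 genes of the Parp14, Dtx3l and Parp9 neighbourhood were lower. PARP9 and DTX3L form a complex that adds ADP-ribose and ubiquitin to proteins in the interferon response. Parp9 had levels of 8.68 in control surface, 7.55 in heme surface, 6.95 in control crypt and 6.83 in heme crypt cells, a difference of -1.13 in surface cells. Parp14, an ADP-ribosyltransferase, had levels of 9.44, 7.97, 7.22 and 6.93 in the same order and differed by -1.47. Dtx3l had levels of 8.39, 6.92, 7.05 and 6.75 and differed by -1.47. The crypt differences of the 3 genes lay between -0.30 and -0.11.

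For 8 genes of membrane and metabolic effectors above the floor in surface cells, the median difference was -0.09. Of these 8, 1 was lower on heme (12.5%, against 2.01% of all genes). That gene was Rtp4, a receptor chaperone induced by interferon, with levels of 8.51 in control surface, 6.88 in heme surface, 5.91 in control crypt and 5.41 in heme crypt cells and a 3.09-fold lower value on heme in surface cells. Rsad2, which encodes viperin, had levels of 7.18, 7.16, 4.65 and 4.61 in the same order and differed by -0.02 in surface cells. Samd9l, an antiviral factor that inhibits translation, had levels of 8.79, 8.60, 6.29 and 6.03 and differed by -0.19. For both genes the surface values lay above both crypt values on each diet, and the crypt values of Rsad2 lay below the floor. Cmpk2, the nucleotide kinase gene next to Rsad2, differed by -0.78 in surface cells, and Bst2, which encodes tetherin, by -0.16. Mx2 lay below the floor on all 4 arrays.

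The IFITM genes, which encode membrane proteins that hinder viral entry, differed in how they compared between compartments, and Ifitm2 and Ifitm3 were lower in surface than in crypt cells. Ifitm2 had levels of 6.86 in control surface, 7.05 in heme surface, 8.83 in control crypt and 8.81 in heme crypt cells and Ifitm3 had levels of 7.84, 7.99, 8.91 and 9.14 in the same order. Crypt values were above surface values for both genes on both diets, although after centring on ribosomal protein genes Ifitm3 turned to 0.19 on control and lay near 0 on heme, and Ifitm2 no longer passed the size rule. Ifitm1 passed in no comparison, with -0.59 and -0.34 between surface and crypt cells on control and heme, and the same centring turned these to 0.68 and 0.81. The family members are close relatives, so their signals may not be fully separate. Heme differences in surface cells were 0.31 for Ifitm1, 0.19 for Ifitm2 and 0.16 for Ifitm3.

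Of the interferon-induced GTPases that attack intracellular pathogens, Gbp3 and Irgm1 were measured and both were lower. Gbp3 had levels of 7.40 in control surface, 6.00 in heme surface, 6.16 in control crypt and 5.39 in heme crypt cells, a difference of -1.40 in surface and -0.76 in crypt cells. Irgm1 had levels of 7.47, 6.36, 7.09 and 7.02 in the same order and differed by -1.11 and -0.07, so that its heme surface value was the lowest of the 4. Irgm1 did not pass the size rule with log2(2^value + 32).

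Among the other interferon-induced genes, Xaf1, which promotes apoptosis, had levels of 6.50 in control surface, 5.15 in heme surface, 5.30 in control crypt and 4.69 in heme crypt cells and was 2.55-fold lower on heme in surface cells. Xaf1 did not pass the size rule with log2(2^value + 32). Ifi27, a mitochondrial protein gene, had levels of 8.11, 7.71, 7.49 and 6.51 in the same order. It differed more in crypt (-0.98) than in surface cells (-0.40), the reverse of most of the list. Ifi35 and the secreted glycoprotein gene Lgals3bp differed by -0.42 and -0.33 in surface cells.

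**Figure D3:**
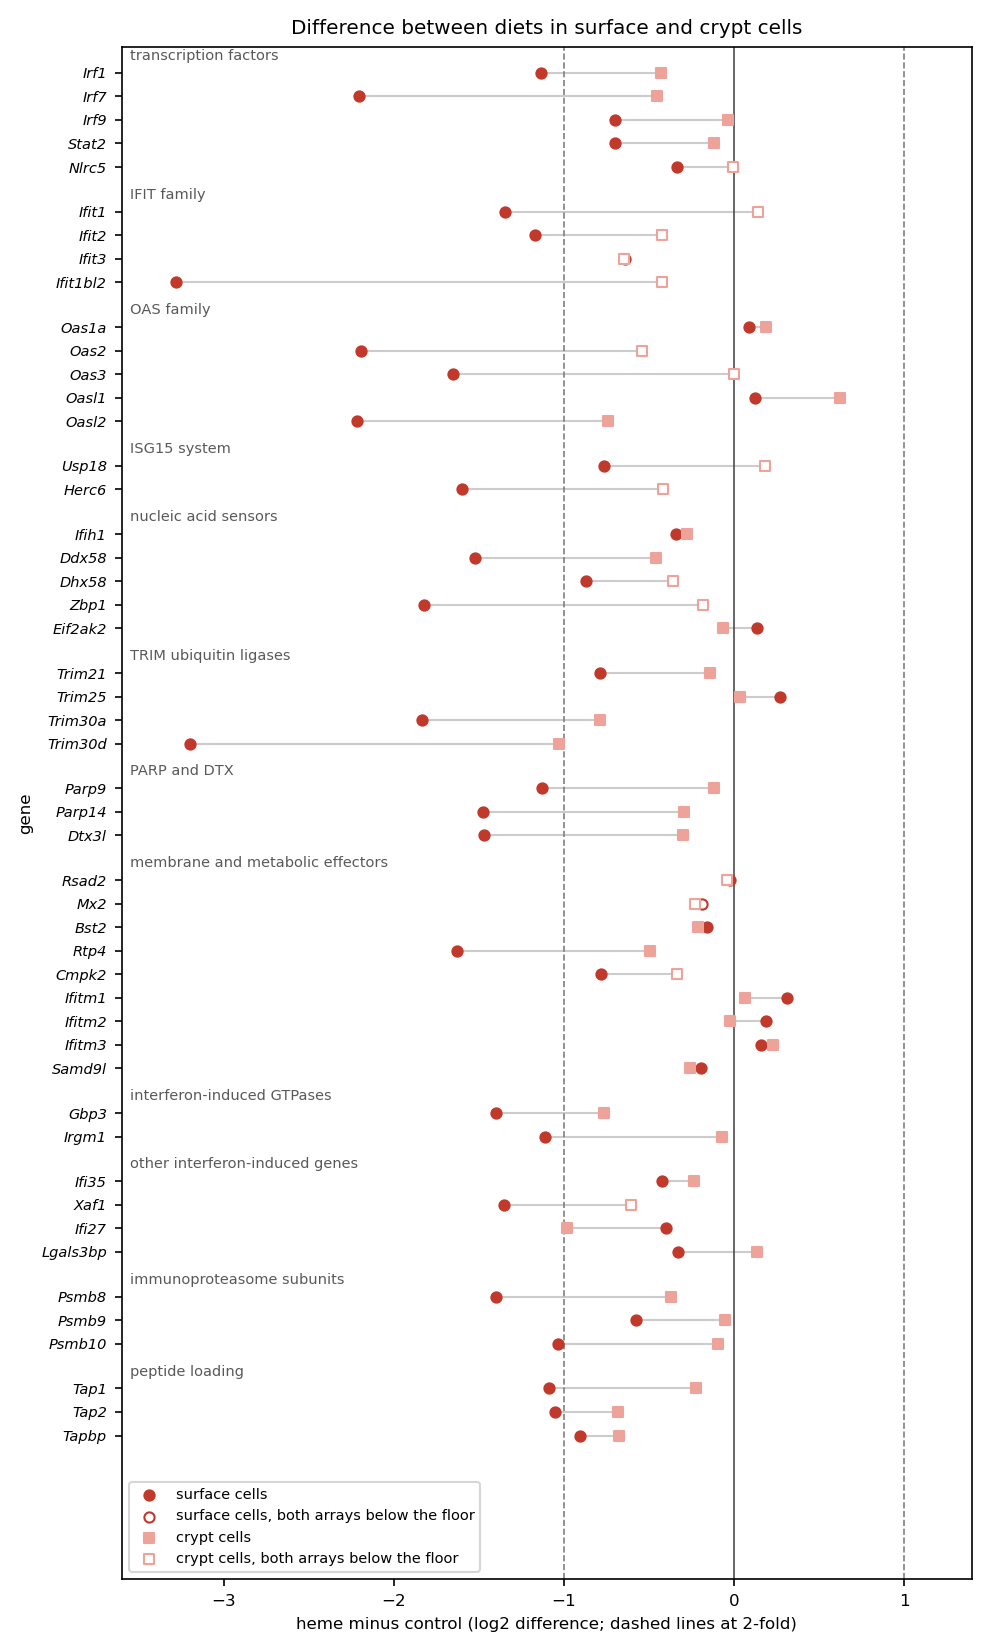
Difference between diets (heme minus control, log2) for each of the 49 genes in surface cells (circles) and crypt cells (squares), with open symbols where both arrays compared lay below the floor. Dashed lines mark 2-fold, and 24 filled circles but 1 square lie past the lower line.

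Of the 3 immunoproteasome genes, Psmb8 and Psmb10 were lower in heme surface cells and Psmb9 was not. Psmb8 had levels of 7.18 in control surface, 5.78 in heme surface, 6.11 in control crypt and 5.74 in heme crypt cells, so that the diets differed by -1.40 at the surface and -0.37 in crypts. Psmb10 had levels of 9.29, 8.26, 8.56 and 8.47 in the same order and differed by -1.03 and -0.09. Psmb9 went from 7.58 to 7.01 in surface cells, a difference of -0.58, and did not pass the size rule. Of these 3, the control surface array held the highest value each time, and Psmb10 did not pass the size rule with log2(2^value + 32).

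The constitutive subunit genes, none of which passed the size rule, differed by 0.41 for Psmb5, 0.89 for Psmb6 and 0.87 for Psmb7 in surface cells, and by 0.61, 0.50 and 0.44 in crypt cells. The difference between diets of an immunosubunit minus that of its counterpart was -1.81 for Psmb8 and Psmb5, -1.91 for Psmb10 and Psmb7, and -1.47 for Psmb9 and Psmb6 in surface cells. The corresponding crypt values were -0.98, -0.53 and -0.55. The regulator gene Psme2, an interferon-induced activator subunit, differed by -0.77 in surface cells, while Psme1 differed by 0.04, Psme3 by 0.14, Psme4 by 0.34 and the assembly factor gene Pomp by 0.81. The 3 subunit pairs thus differed unequally within the same arrays, in surface more than in crypt cells.

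**Figure D4:**
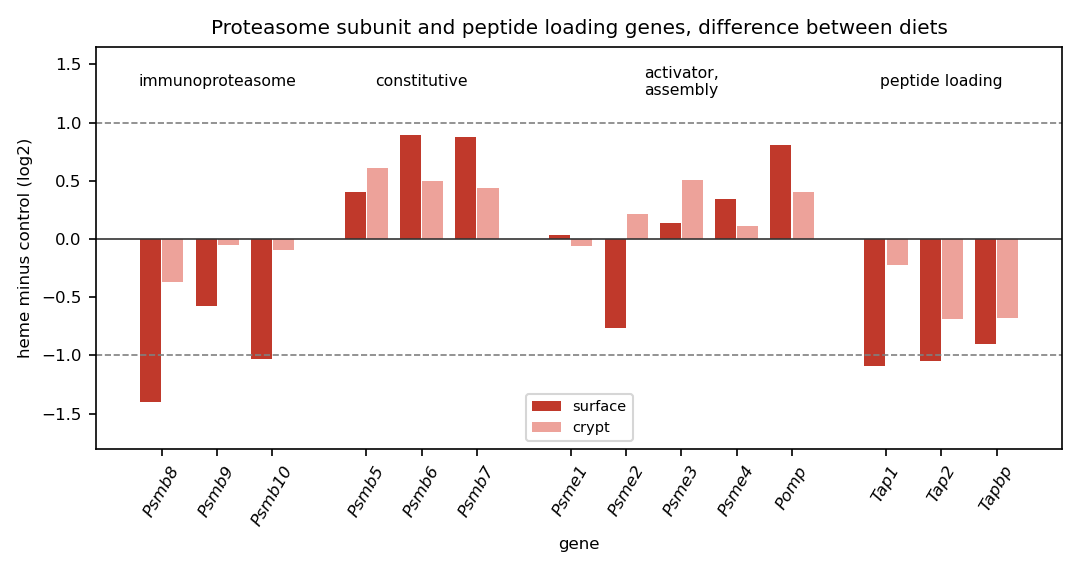
Difference between diets (heme minus control, log2) in surface (dark) and crypt cells (light) for genes of the immunoproteasome, the constitutive catalytic subunits, the proteasome activators and assembly factor, and peptide loading. Bars start at 0 and dashed lines mark 2-fold; in surface cells Psmb8, Psmb10, Tap1 and Tap2 reach the lower line, and the 3 constitutive subunits lie between 0.41 and 0.89.

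Both genes of the peptide transporter were also lower in heme surface cells. Tap1, which lies between Psmb9 and Psmb8 on the chromosome, had levels of 6.76 in control surface, 5.67 in heme surface, 6.31 in control crypt and 6.09 in heme crypt cells and differed by -1.09. Tap2, next to Psmb8, had levels of 7.74, 6.69, 6.85 and 6.17 in the same order and differed by -1.05 in surface and -0.68 in crypt cells. Tapbp, which encodes the tapasin bridge between the transporter and MHC class I, had levels of 10.22, 9.32, 8.98 and 8.30 and differed by -0.90 and -0.68. Tap1 and Tap2 did not pass the size rule with log2(2^value + 32) or after cyclic loess scaling. Of 22 class I and loading genes outside the list, 14 were measured. The 8 that were not include the class I genes H2-K1, H2-D1, H2-Q7 and H2-T23, so their direction is not known here. Of the 14, 10 were above the floor in surface cells. Of these 10, 2 were lower on heme, where 2.01% of all genes were. They were the class I gene H2-Q2, which lay at the 2-fold limit, and the peptide trimming gene Erap1 (-1.06).

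In crypt cells few genes of the list passed the size rule. Of 34 genes above the floor, 1 was lower (2.94%) and none was higher, where 1.19% of 10491 genes were lower and 1.78% were higher. The median difference was -0.23 against 0.01 for all genes, and 28 of the 34 differences were below 0, where 5080 of 10491 were. Besides Trim30d, the largest were -0.98 for Ifi27, -0.79 for Trim30a and -0.76 for Gbp3, and the highest was 0.62 for Oasl1. Trim30d did not pass the size rule in crypt cells with log2(2^value + 32), after cyclic loess, or when centred on ribosomal protein genes. At 1.5-fold, 7 genes of the list were lower and 1 was higher, where 5.60% and 5.89% of all genes were. On the same arrays 6 of the 10 surface colonocyte markers were higher in heme crypt cells, with a median difference of 1.13, and their part in the crypt values was not tested.

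The heme difference was then compared between compartments as the surface difference minus the crypt difference. Of 47 genes above the floor on at least 1 array, 17 were at least 2-fold more negative in surface than in crypt cells and none was more positive, where 2.17% and 3.29% of 11147 genes were. The median was -0.66 against -0.02 for all genes. Of the 47 genes, 39 had a more negative difference in surface cells, where 5820 of 11147 genes did. The largest values were -2.85 for Ifit1bl2, -2.17 for Trim30d, -1.75 for Irf7, -1.66 for Oas2 and -1.65 for Oas3. Several crypt values of these genes lay below the floor, where a difference is hard to measure, and with log2(2^value + 32) the count was 11. At 1.5-fold it was 26, with none more positive, where 8.18% and 10.1% of all genes were.

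The comparison of compartments sets the surface pools beside the crypt pools. These pools also held smooth muscle and fibroblast markers (summed level 12.3 in control surface and 12.6 in control crypt cells). The values therefore do not place expression in the epithelium alone. Pan-epithelial markers themselves had a median surface minus crypt difference of 0.98 on each diet, and their part was not tested. On the control diet, 30 of 47 genes above the floor were higher in surface cells and 2 were lower, where 12.0% of 10864 genes were higher and 13.5% were lower. The largest differences were 3.97 for Irf7, 3.82 for Ifit1bl2, 3.62 for Ifit1, 3.41 for Oasl2 and 2.93 for Oas3. The control crypt values of Ifit1bl2, Ifit1 and Oas3 lay below the floor, so the size and order of their differences are uncertain. On heme, 13 of 35 genes above the floor were higher and 2 were lower, where 15.3% and 16.5% of 10698 genes were. The median over the 49 measured genes was 1.24 on control and 0.51 on heme. At 1.5-fold, 36 genes were higher and 3 lower on control, where 20.2% and 25.2% of all genes were, and 15 were higher and 3 lower on heme, where 24.9% and 27.6% were.

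Of the 30 genes higher in surface cells on the control diet, 12 (40.0%) were also higher on heme, and these made up 92.3% of the 13. Over all genes, 1056 of 1301 (81.2%) were shared, which made up 64.5% of the 1637 higher on heme. The 12 shared genes of the list were Irf7, Ifit1, Oas1a, Oasl1, Oasl2, Rsad2, Ifih1, Trim25, Parp14, Rtp4, Samd9l and Tapbp. Ifi27 was the gene counted on heme alone (0.62 on control and 1.20 on heme). Ifit2, Ifit1bl2, Oas2, Oas3, Usp18, Dhx58, Trim30d, Zbp1, Xaf1 and Herc6 were counted on control. They lay below the floor on both heme arrays, so they could not be counted on heme. Without the floor only Oas3 (1.29) was added on heme, and differences between values below the floor are uncertain. Of the 24 genes lower in heme surface cells, 7 had a heme surface value at or above the floor and above both crypt arrays, namely Irf1, Irf7, Ifit1, Oasl2, Parp9, Parp14 and Rtp4, although Irf1 was above by less than 0.25. Another 5, Ifit2, Ifit1bl2, Oas2, Oas3 and Herc6, had heme surface values below the floor, which were not ranked against the crypt. The other 12 had a value at or below that of control crypt cells, among them Trim30d, Ddx58, Irgm1, Psmb8, Psmb10 and Tap1. Of these 12, Trim30d, Zbp1, Xaf1 and Tap1 also had heme surface values below the floor. For Zbp1 and Xaf1 the control crypt value lay below the floor too, so their order is uncertain. The diet and the compartment comparison share the control surface array, so these counts are not independent. The same split was not counted over all genes lower in heme surface cells, so it describes the listed genes only. Chosen after their values were seen, 6 surface genes differed by less than 0.5 between diets in surface cells, namely Oas1a, Oasl1, Rsad2, Ifih1, Trim25 and Samd9l. Centring on ribosomal protein genes, which were themselves lower in surface cells, moved the median of all genes by over 1, the control count from 30 to 44 and the heme count from 13 to 27. Relative to the median of all genes, which any centring leaves as it is, the list median was 1.29 on control and 0.57 on heme.

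**Figure D5:**
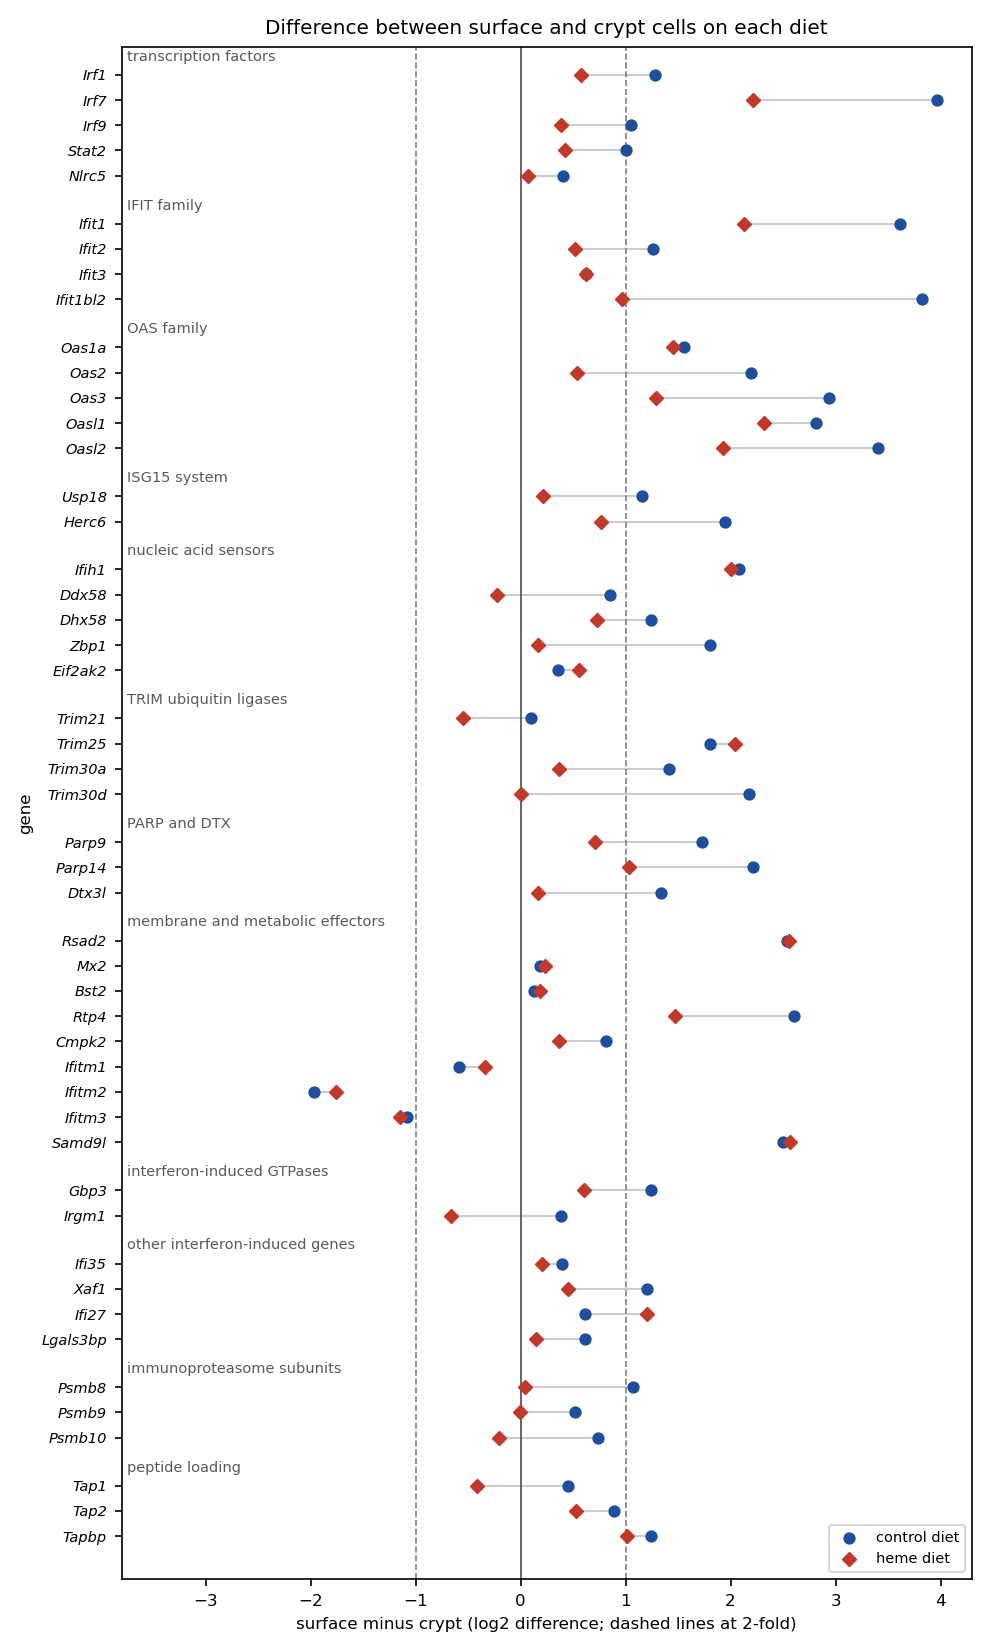
Difference between compartments (surface minus crypt, log2) for each of the 49 genes on the control diet (circles) and the heme diet (diamonds), with dashed lines at 2-fold. On control 30 genes lie past the upper line, while on heme 14 do, of which Oas3 was below the floor on both arrays and not counted; Ifitm2 and Ifitm3 lie past the lower line on both diets, a direction that under ribosomal protein centring turned for Ifitm3 on control and came near 0 on heme.

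Other genes of the pathway were set beside the list. Of 13 interferon genes measured, 11 lay below the floor on every array and none passed the size rule. The receptor genes differed by 0.12 (Ifnar1), 0.11 (Ifnar2), -0.22 (Ifngr1), -0.23 (Ifngr2), -0.08 (Ifnlr1) and -0.27 (Il10rb) between diets in surface cells. The type III receptor gene Ifnlr1 had levels of 7.03 in control surface, 6.95 in heme surface, 5.37 in control crypt and 5.78 in heme crypt cells. The kinase genes Jak1, Jak2 and Tyk2 differed by -0.24, 0.19 and 0.04, and Stat3 by 0.13. Of 7 genes grouped as negative regulators, which included an ISG15-conjugating enzyme gene, none passed the size rule between diets in either compartment. Of 10 sensing adaptors and upstream factors above the floor in surface cells, the double-stranded RNA receptor gene Tlr3 was lower (-1.13) and the rest did not pass.

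A second set of 69 interferon-induced genes outside the list, also chosen with earlier results of these data known, had 54 measured genes. Of the 54, 35 were above the floor in surface cells. Of these 35, 6 were lower (17.1%, against 2.01% of all genes) and 1 was higher (2.86%, against 3.62%) on heme, with a median of -0.56. In crypt cells 2 of 31 were lower (6.45%, against 1.19% of all genes), Gbp7 (-1.01) and Trim12a (-1.12), and none was higher. The lower genes were Ido1 (-2.11), which encodes a tryptophan-degrading enzyme, the nuclear body gene Sp100 (-1.94), Cd274 (-1.29), which encodes PD-L1, Rnf213 (-1.29), Gbp7 (-1.24) and Trim14 (-1.12). Plscr1, named after its value was seen, was the higher gene (1.04). Ido1 had levels of 7.57 in control surface, 5.46 in heme surface, 3.31 in control crypt and 3.50 in heme crypt cells, with both surface values above both crypt values.

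MHC class II genes showed another pattern. H2-Aa and H2-Ab1 were lower in heme crypt cells (-1.08 and -1.08) and differed by -0.35 and -0.24 in surface cells. H2-Eb1, Cd74 and H2-DMa did not pass the size rule in either compartment, and the class II regulator gene Ciita lay below the floor on every array. Macrophage and dendritic cell markers had a median difference of -0.65 in the same crypt comparison, with 9 of 11 below 0 and Csf1r at -1.02, and their part in the class II values was not tested.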

How the data were processed

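Each of the 4 arrays measured 1 pool of RNA (100 ng, Affymetrix whole-transcript labelling per the labels' protocols). For every probe set the authors deposited a log2 value, computed with RMA per the submitters' processing notes. Which arrays entered the normalization, and the software version, are not stated there. RMA pulls the array distributions together, so a shift shared by most genes would be reduced. Of 35556 probe sets, 21789 had 1 gene symbol, updated through gene identifiers to GRCm38.p6 for 21698 of them, 1621 had several and 12146 had none. A gene is the mean of its single-symbol probe sets. Differences were computed between arrays, and a difference of at least 1 (2-fold) with 1 array at or above 5.75 was counted. The number of arrays limits the precision, and no p-value or SD was computed. Genes given with all 4 values are those counted in at least 1 of 5 comparisons, plus a few pathway genes; 38 of 49 genes were counted in at least 1. Other pathway genes were named where counted in a heme comparison (up to 6 a list) or where a list had at most 6 measured genes. Cell type markers below the floor were named after their values were seen, as was Plscr1. The genes and lists were chosen with earlier results of these data known. Python 3.11.15, numpy 2.4.6, pandas 2.3.3, R 4.3.3 and limma 3.58.1 (cyclic loess) were used, and the size rule was tested on simulated data. Sequences are from RefSeq.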

Additional observations from a re-analysis of the deposited data

Results flagged for a closer look

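Ifit1 differed in opposite directions between the compartments, by -1.35 in surface cells and by 0.14 in crypt cells. The crypt difference is small and both crypt values, 3.79 and 3.92, lie below the floor. With 1 array a group, the difference between the compartments was not tested.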

How the results depend on the processing

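The alternatives were no floor, log2(2^value + 32), centring on 61 ribosomal protein genes, cyclic loess, the highest probe set of a gene in place of the mean, and 1.5-fold in place of 2-fold. In heme surface cells the count of lower genes was 24, 17, 24, 21, 23 and 31 in that order, no gene was higher under any of them, and the median lay between -1.03 and -0.76. Of the 24 genes, 17 were counted under all 6, and Irf1, Ifit2, Xaf1, Irgm1, Psmb10, Tap1 and Tap2 were not counted under at least 1. No floor and 1.5-fold only loosen the rule, so they could not lose a gene. Ribosomal centring moved the median of all genes in this comparison only from -0.015 to -0.009. Besides moving the floor, the highest probe set changed values in the list only for Irf1, Ifitm1, Ifitm2 and Nlrc5. In heme crypt cells the 1 lower gene became 0 with log2(2^value + 32), ribosomal centring and cyclic loess, and 7 lower with 1 higher at 1.5-fold. For the heme effect in surface minus that in crypt cells, the 17 lower genes became 11 with log2(2^value + 32) and 26 at 1.5-fold. For surface against crypt on control, the 2 lower genes became 1 with log2(2^value + 32) and with cyclic loess and 0 with ribosomal centring, where 44 were higher (30 before), the median was 2.51 and Ifitm3 reversed to 0.19. On heme, ribosomal centring gave 27 higher and 0 lower, with a median of 1.67.

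With ribosomal centring the median of all genes became 1.22 on control and 1.10 on heme between compartments, 0.13 for heme in crypt cells and -0.14 for the heme effect in surface minus crypt. All genes then split into 6644 higher and 118 lower (1301 and 1464 before) on control, 5891 and 327 (1637 and 1763) on heme, 266 and 78 (187 and 125) for heme in crypt cells, and 284 and 348 (367 and 242) for the heme effect in surface minus crypt. No paired analysis was possible because each group holds 1 array. Of the 24 genes lower in heme surface cells, 9 had a heme value below the floor, so the size of their difference is uncertain.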
